A study of Mus musculus with 12 samples.

Results

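The genes described here are 34 genes of T cells and intraepithelial lymphocytes. They were listed by name for what they do, with earlier results of these data known, so the list is not independent of the values. A gene was read where the array annotation gives a probe set to that gene alone, and the brightest such probe set would have been taken, although each of the genes had 1. This gave values for 32 of the 34, among 18820 genes read on the array. Lck, the kinase that phosphorylates the CD3 chains, was not analysed here. Foxp3, the transcription factor of regulatory T cells, shares its probe sets with other genes in the annotation and was not used, and Cd244 was read under its current symbol Cd244a.

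The series concerned damage to the small intestine by chemotherapy in mice that had or lacked TLR2, an innate receptor that senses bacterial cell walls. The drug was methotrexate, which starves dividing cells of folate. Mice received 40 mg/kg into the peritoneum daily for 4 days, and proximal jejunum was collected on day 7. There were 3 mice in each of 4 groups: untreated wild type, untreated TLR2 knockout, methotrexate-treated wild type and methotrexate-treated TLR2 knockout, with 1 Affymetrix array for each mouse. Wild-type mice were C57BL6/J and knockout mice B6.129-Tlr2tm1Kir/J, a whole-body mutation bred from another strain. Age, housing and whether the genotypes were littermates are not stated in the labels, and for untreated mice neither an injection nor a day of sacrifice is recorded.

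Intraepithelial lymphocytes are T cells that lie between the epithelial cells of the gut. Most carry CD8 and many have the αα form of it, which lacks the β chain of conventional cytotoxic T cells. They are held in the epithelium by the integrin CD103, which binds E-cadherin, are armed with granzymes, and depend on signals from epithelial cells such as interleukin 15 and butyrophilin-like proteins. CD4 T cells of the lamina propria, below the epithelium, carry the same CD3 complex with other co-receptors and checkpoints. All values below are log2 signals of whole jejunum, so a change of 1 is a doubling, and fewer cells of a type cannot be told apart from less RNA per cell.

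Some arrays stood apart. The probe set of the targeted gene Tlr2 lay between 4.37 and 4.65 in the 6 wild-type arrays, between 4.36 and 5.02 in untreated knockout arrays and between 5.28 and 6.18 in treated knockout arrays. The part of the gene it reads is not known here, so it checks neither genotype nor label. Genes of the exocrine pancreas averaged 11.7 to 12.4 in 7 arrays and 4.16 to 5.60 in the other 5, and each group held at least 1 array of each kind. Genes of B cells and lymphoid follicles averaged 6.40 in replicate 1 of the treated wild type, against 3.53 and 3.65 in the other two, and in the other groups lay between 3.62 and 5.12. Epithelial genes averaged 10.3 to 10.7 in the 9 arrays outside the treated knockout and 9.66 to 9.92 in the 3 treated knockout arrays. These genes show epithelium in all 12 arrays and do not tell jejunum from other segments of the gut. Genes of adipocytes averaged 7.47 in replicate 1 of the untreated wild type and 4.35 to 5.40 in the other 11 arrays.

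After methotrexate, the jejunum of TLR2 knockout mice had less RNA for 2 of the 4 CD3 chains (Cd3e and Cd3g), CD8α, CD7 and CD103. It also had less for granzymes A and B and the granule proteins Nkg7 and Ctsw, and more for CTLA-4, the interleukin 7 receptor and CD4. Of 25 other settings of the fit, the rise was called in 25 for Ctla4, 23 for Il7r and only 10 for Cd4. In the fit of limma across all genes, 12 of the 32 genes fell at an adjusted p under 0.05, against 16.0% of all genes tested, and 3 rose, against 18.8%. The falls ran from 0.63 (Tbx21) to 2.77 (Gzmb) on the log2 scale, and 8 of the 12 were at least 1. The lowered share of the 32 genes, 37.5%, was above the background share, and the raised share, 9.38%, below it. The median change was -0.26 for the 32 genes and -0.02 for all genes. In 13 of the 32 genes the 3 treated knockout arrays lay wholly below the untreated knockout arrays, against 21.6% of all genes. In 10 of the 32 genes they lay below the other 9 arrays of the series, against 14.7% of all genes, and in 2, Il7r and Ctla4, above them, against 17.2%.

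**Figure D1:**
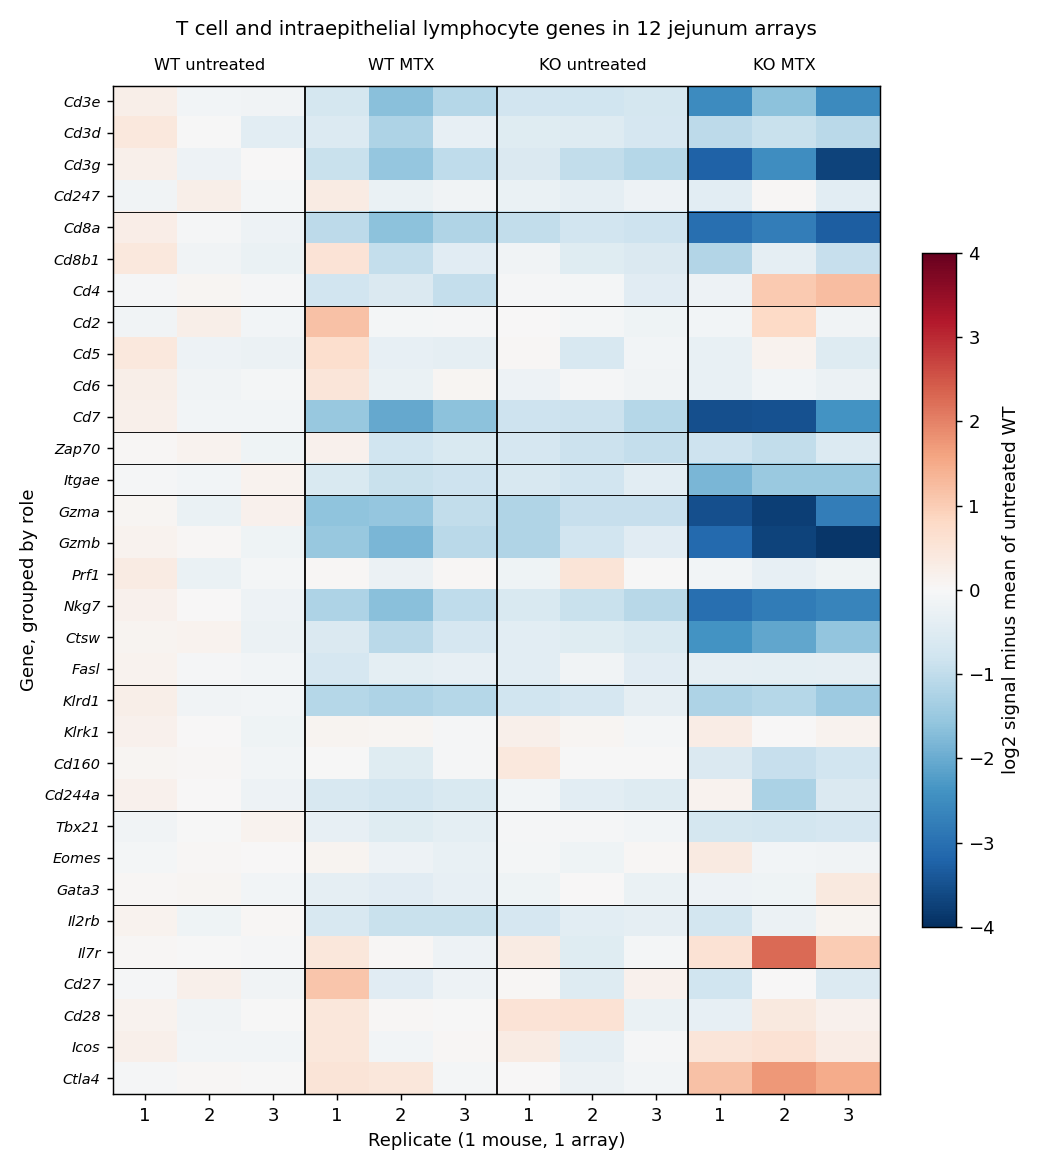
Heat map of the 32 genes (rows, grouped by role) in the 12 arrays (columns, 3 mice per group), where colour gives the log2 signal minus the mean of untreated wild-type mice. Cd3g, Cd8a, Cd7, Gzma, Gzmb and Nkg7 are deepest blue in the treated knockout columns, Ctla4 is red in all 3 of them, and Cd4 is red in replicates 2 and 3 only.

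In wild-type mice methotrexate lowered Cd8a, Cd7, Nkg7 and Klrd1, by 2.26-fold to 3.35-fold. These are 4 of 32 genes against 0.0319% of all genes, and none of the 32 rose in limma, in this fit or in the other settings. Their adjusted p-values lay just under the threshold, between 0.0437 and 0.0499, and they ranged from 0.000999 to 0.242 over the other settings tried. Leaving out 1 array removed all 4 calls in 9 of 12 fits, which were those without any array of the treated or untreated wild type, without replicate 2 or 3 of the untreated knockout or without replicate 2 of the treated knockout. The unadjusted p was under 0.05 for 17 of the 32 genes, all of them lower, against 11.7% of all genes in either direction. In 16 of the 32 genes the treated wild-type arrays lay wholly below the untreated ones, against 9.18% of all genes. The median change was -0.41 for the 32 genes and -0.0028 for all genes, and 23 of the 32 were below 0 against 50.5% of all genes. All 12 genes that fell in treated knockout mice had a change below 0 in wild-type mice. The matching share among all genes that fell in knockout mice was not counted, so this is no result about these genes as a group.

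**Figure D2:**
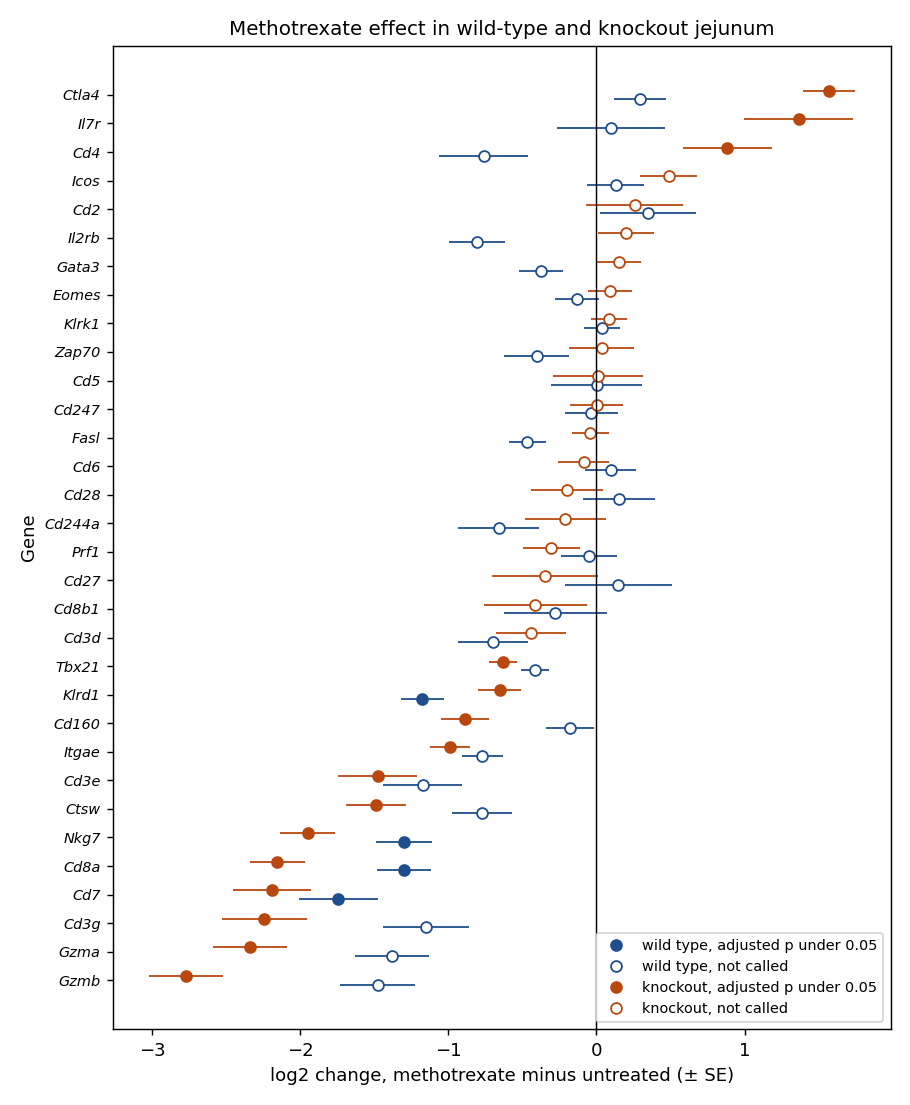
Change with methotrexate (log2, treated minus untreated, ± SE of the limma fit) of each of the 32 genes (rows) in wild-type (blue) and knockout (orange) mice, with filled points for an adjusted p under 0.05. Gzmb, Gzma and Cd3g are at the bottom with changes of -2.77, -2.34 and -2.24 in knockout mice, and Ctla4 is at the top with 1.57.

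Without methotrexate the knockout mice already had lower means for 28 of the 32 genes, where 45.2% of all genes were lower. None of the 32 passed in limma (smallest adjusted p 0.648, Cd8a), while 2 of all genes, or 0.0106%, did. The unadjusted p was under 0.05 for 14 of the 32 genes, each lower in the knockout, against 6.19% of all genes in either direction. In 16 of the 32 genes the untreated knockout arrays lay wholly below the untreated wild-type arrays, against 5.63% of all genes. With array weights in the fit, 8 of the 32 were called, each lower in the knockout, against 2.96% of all genes. When the untreated wild-type array highest in adipocyte genes was left out, 27 of the 32 genes were lower in the knockout, and the median difference was -0.23 against -0.30 with it. The means of 12 of the 32 genes, or 37.5%, had the order untreated wild type, untreated knockout, treated wild type, treated knockout from high to low, as had 7.65% of all genes. The 12 were Cd3e, Cd3d, Cd3g, Cd8a, Cd7, Itgae, Gzma, Gzmb, Nkg7, Ctsw, Klrd1 and Tbx21. No other order was counted over all genes, so these shares are a description and not a test. The order is one of means, and arrays of neighbouring groups overlapped for some of the genes, such as Klrd1 between the treated genotypes.

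Between the treated genotypes, which share the treated knockout arrays with the first comparison, 11 of the 32 genes were lower in the knockout, against 16.8% of all genes, and 4 were higher, against 20.2%. The 11 were Cd3e, Cd3g, Cd8a, Cd7, Itgae, Gzma, Gzmb, Nkg7, Ctsw, Cd160 and Tbx21. The 4 were Cd4, Il2rb, Il7r and Ctla4. Among the arrays high in pancreatic RNA the median difference of the 32 genes was 0.01, with 14 below 0. Among those low in it the median was -0.53, with 22 below 0. Each of the 11 was below 0 in both, with Cd3e at -0.43 and -1.59. Each split left 1 array in one of the groups. The interaction is the drug's effect in the knockout less its effect in the wild type, and 6 of the 32 genes passed for it, against 23.8% of all genes. It was below 0 for Cd8a, Gzmb and Cd160 and above 0 for Cd4, Il2rb and Ctla4. The share of the 32 genes was under the background, so it is no result about these genes as a group.

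The CD3 chains, which carry the signal of the T cell receptor into the cell, were read by 4 genes. Cd3e had signals of 7.26, 6.92 and 6.89 in untreated wild-type mice, 6.27, 6.22 and 6.31 in untreated knockout mice, 6.32, 5.36 and 5.87 in treated wild-type mice and 4.50, 5.39 and 4.47 in treated knockout mice. Cd3g, in the same order of groups, had 7.12, 6.71 and 6.93, then 6.34, 5.94 and 5.78, then 6.03, 5.36 and 5.92, and last 3.67, 4.45 and 3.22. Of the treated knockout arrays, replicate 2 was the highest for both genes, and for Cd3e it overlapped the treated wild type. In knockout mice methotrexate lowered Cd3e by 2.79-fold (-1.48 ± 0.27, adjusted p = 0.0011) and Cd3g by 4.73-fold (-2.24 ± 0.29, adjusted p = 9.15e-05). In wild-type mice the changes were -1.17 ± 0.27 (adjusted p = 0.146) and -1.15 ± 0.29 (adjusted p = 0.181). Cd3d and the ζ chain gene Cd247 had means of 3.32 to 4.33 in the 4 groups and passed in no comparison. Cd3e, Cd3d and Cd3g are neighbours on chromosome 9, and only the first and the last of these passed in knockout mice.

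Cd8a encodes the chain found in both forms of the CD8 co-receptor. Its signals were 6.96, 6.65 and 6.48 in untreated wild-type mice, 5.71, 5.93 and 5.86 in untreated knockout mice, 5.66, 5.05 and 5.48 in treated wild-type mice and 3.69, 3.93 and 3.41 in treated knockout mice. The 3 treated knockout arrays were the lowest of the series. Methotrexate lowered Cd8a by 2.46-fold in wild-type mice (-1.30 ± 0.18, adjusted p = 0.0437) and by 4.46-fold in knockout mice (-2.16 ± 0.18, adjusted p = 4.17e-06), and the interaction was -0.86 ± 0.26 (adjusted p = 0.0335). The interaction did not pass, with adjusted p-values up to 0.0829, without replicate 2 or 3 of either untreated group, replicate 1 or 3 of the treated wild type or replicate 3 of the treated knockout. Cd8b1, the β chain gene next to Cd8a on chromosome 6, passed in no comparison. Its signal was 5.31 in replicate 1 of the treated wild type, the array with the most B cell RNA, and 3.81 and 4.29 in the other two. In treated knockout mice Cd8b1 was 3.57, 4.39 and 3.82, and the change with methotrexate was -0.41 ± 0.35 (adjusted p = 0.409).

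Cd4 encodes the co-receptor of helper and regulatory T cells and is also found on some macrophages of the gut. It had signals of 5.76, 5.87 and 5.76 in untreated wild-type mice, 5.74, 5.72 and 5.35 in untreated knockout mice, 5.04, 5.21 and 4.85 in treated wild-type mice and 5.58, 6.84 and 7.04 in treated knockout mice. Replicates 2 and 3 of the treated knockout were the highest of the series, while replicate 1 was within the range of the untreated knockout. The rise in knockout mice was 1.85-fold (0.88 ± 0.30, adjusted p = 0.0409) and was called in 10 of the 25 other settings, with adjusted p-values from 4.4e-05 to 0.148. Leaving out any 1 array other than replicate 1 of the treated knockout ended the call, with changes down to 0.61. Among the arrays high in pancreatic RNA the difference was 1.41, and between the single arrays low in it -0.16. The interaction for Cd4 was 1.65 ± 0.43 (adjusted p = 0.0149), with a wild-type change of -0.76 ± 0.30 (adjusted p = 0.38). Within an array, the log2 signal of Cd8a minus that of Cd4 averaged 0.90 ± 0.26 (SD, n = 3) in untreated wild-type mice, 0.23 ± 0.27 in untreated knockout mice, 0.36 ± 0.45 in treated wild-type mice and -2.81 ± 0.87 in treated knockout mice. The treated knockout arrays did not overlap the others in this difference.

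The macrophage list rose in the same arrays. All 10 of its measured genes rose with methotrexate in knockout mice, against 18.8% of all genes. Its mean level was 8.43 to 8.95 in treated and 6.66 to 6.91 in untreated knockout arrays. In wild-type arrays it was 5.81 to 6.64 with methotrexate and 6.86 to 6.98 without. There 9 of the 10 genes had a change below 0, as had Cd4. None passed in limma, and 7 had an unadjusted p under 0.05. Cd163, a scavenger receptor of tissue macrophages, was 6.19, 7.02 and 6.87 in treated knockout mice and between 3.06 and 3.43 in the other 9. Of 9 mast cell genes 4 rose with methotrexate in knockout mice and 0 fell. Their mean level was 4.51 to 4.71 in treated knockout arrays and 3.48 to 3.73 in the other 9. Of 7 plasma cell genes 1 rose and 2 fell in knockout mice, where 16.0% of all genes fell. Of 6 innate lymphoid cell genes 1, Il7r, rose and 0 fell. No gene of these lists passed in limma in wild-type mice. The part of macrophage RNA in the rises of Cd4, Il7r and Ctla4 was not tested.

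**Figure D3:**
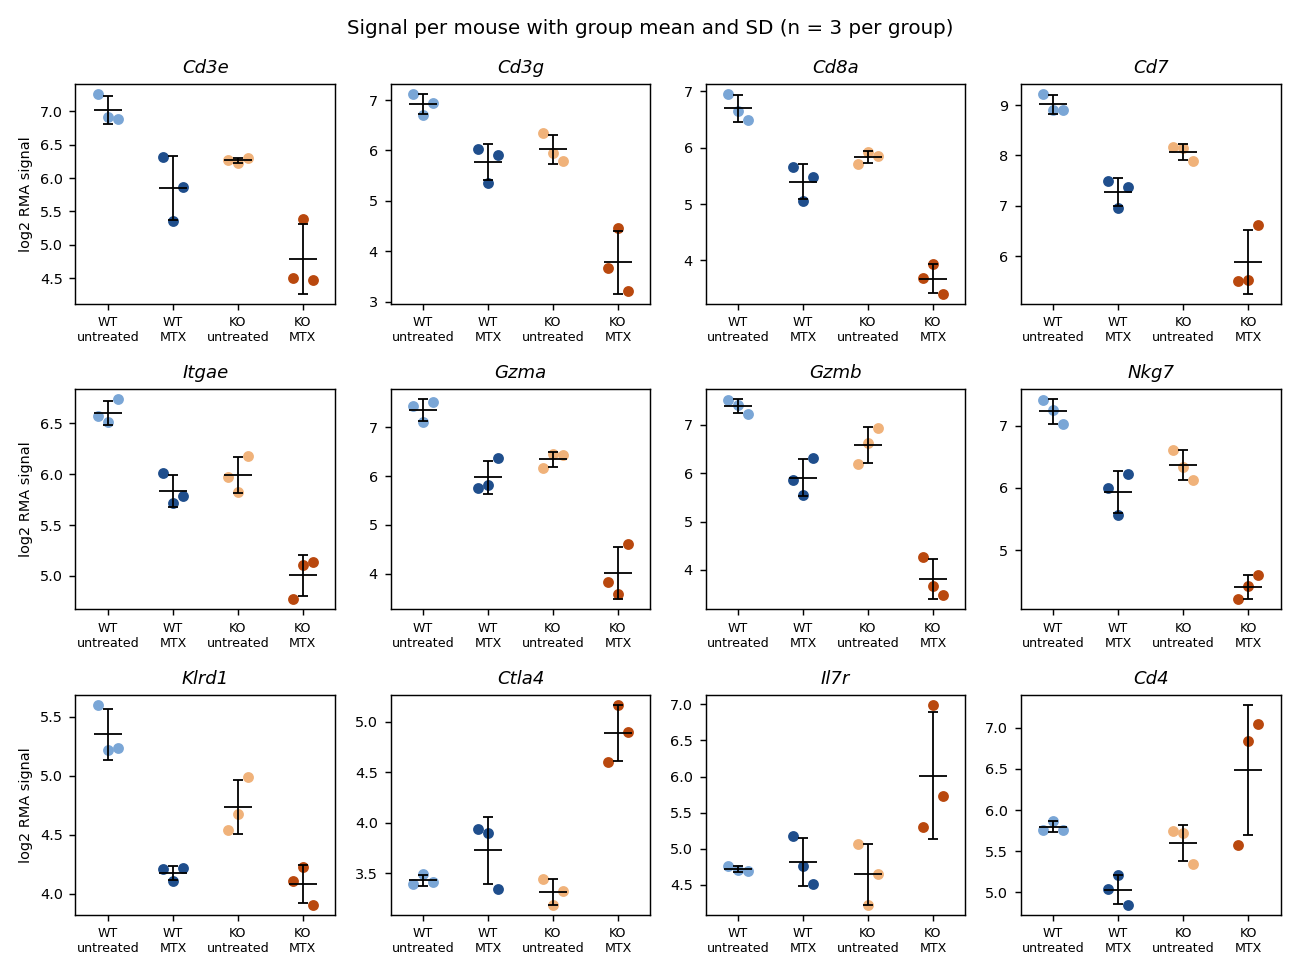
Log2 signal of 12 of the genes in each mouse (points), with the group mean and SD (bars, n = 3 mice), for untreated and methotrexate-treated wild-type and knockout jejunum. For Cd3g, Cd8a, Cd7, Itgae, Gzma, Gzmb and Nkg7 the 3 treated knockout mice lie below all the other mice, and for Ctla4 and Il7r above them.

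Of 4 surface proteins shared by T cells, Cd7 fell with methotrexate, and Cd2, Cd5 and Cd6 did not pass. Of all genes, 16.0% fell in knockout and 0.0319% in wild-type mice. Cd7, a receptor of T cells and natural killer (NK) cells, had 9.23, 8.91 and 8.91 in untreated wild-type mice, 8.18, 8.15 and 7.89 in untreated knockout mice, 7.48, 6.96 and 7.37 in treated wild-type mice and 5.50, 5.53 and 6.61 in treated knockout mice. The 4 groups did not overlap. It fell by 3.35-fold in wild-type mice (-1.74 ± 0.26, adjusted p = 0.0499) and by 4.56-fold in knockout mice (-2.19 ± 0.26, adjusted p = 5.61e-05). Cd2, an adhesion receptor, and Cd5 and Cd6, scavenger-type receptors that tune T cell signals, had group means of 3.51 to 4.02 and passed in no comparison. In treated wild-type mice all 3 were highest in replicate 1. Cd2 was 4.75 there against 3.51 and 3.53, and Cd5 was 4.70 against 3.69 and 3.67. Cd27 was 5.21 against 3.65 and 3.92, and Zap70, the kinase that binds phosphorylated CD3 chains, was 5.16 against 4.20 and 4.38. In that array 23 of the 32 genes were the highest of their group, and its B cell level was the highest of the series. The array highest in B cell genes led its group for 20 genes in untreated wild-type, 17 in untreated knockout and 15 in treated knockout mice. Leads of more than 0.5 over both other mice numbered 5 in the treated wild type, and 2, 0 and 6 in those groups. The shares over all genes were not counted. The part of lymphoid tissue in these values was not tested.

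**Figure D4:**
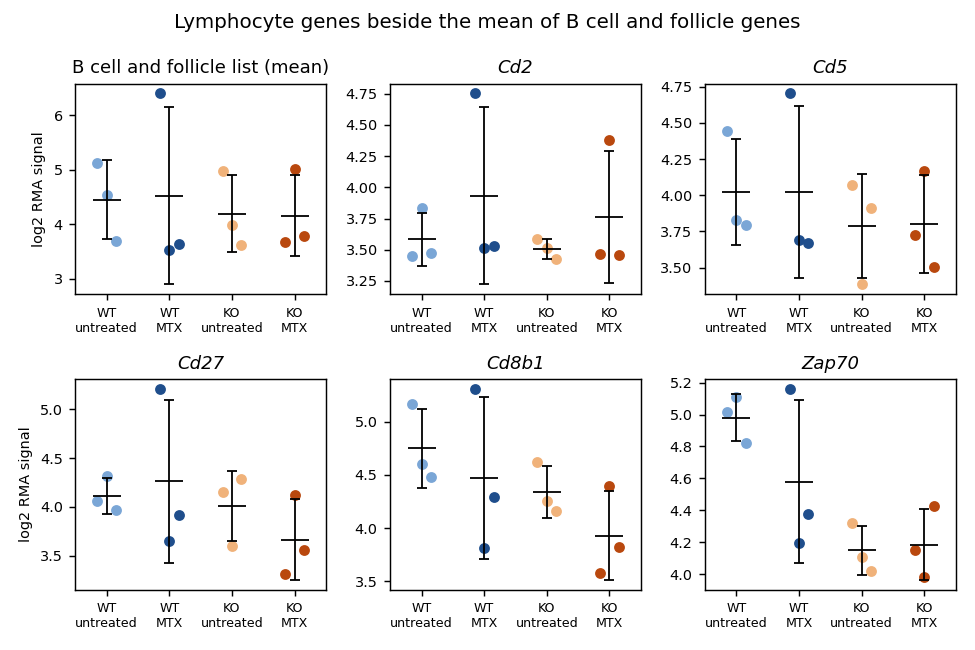
Mean log2 signal of 11 B cell and follicle genes (first panel) beside Cd2, Cd5, Cd27, Cd8b1 and Zap70 in each mouse (points), with the group mean and SD (bars, n = 3 mice). Replicate 1 of the treated wild type is the highest of its group in every panel, at 6.40 for the B cell genes, and within the treated knockout group Cd2, Cd5, Cd27 and Cd8b1 are each highest in replicate 2, where the B cell genes are at 5.02.

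Itgae, the α chain of CD103, had 6.57, 6.51 and 6.74 in untreated wild-type mice, 5.97, 5.83 and 6.18 in untreated knockout mice, 6.01, 5.71 and 5.78 in treated wild-type mice and 4.77, 5.11 and 5.13 in treated knockout mice. Untreated knockout and treated wild-type mice overlapped, and treated knockout mice were lowest. It fell by 1.98-fold with methotrexate in knockout mice (-0.99 ± 0.14, adjusted p = 0.000167), while the wild-type change was -0.77 ± 0.14 (adjusted p = 0.072).

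Of the 6 cytotoxic effector genes, 4 fell in treated knockout mice, where 16.0% of all genes fell. Gzmb, the gene of granzyme B, a serine protease that triggers apoptosis in target cells, had 7.51, 7.42 and 7.22 in untreated wild-type mice, 6.19, 6.62 and 6.94 in untreated knockout mice, 5.86, 5.55 and 6.30 in treated wild-type mice and 4.27, 3.67 and 3.48 in treated knockout mice. Its fall of 6.84-fold in knockout mice (-2.77 ± 0.25, adjusted p = 6.39e-06) was the largest of the 32 genes. The change in wild-type mice was -1.48 ± 0.25 (adjusted p = 0.0647) and the interaction -1.30 ± 0.36 (adjusted p = 0.02). Leaving out replicate 3 of either wild-type group ended that call. Gzma, the gene of granzyme A, had 7.45, 7.10 and 7.52, then 6.17, 6.45 and 6.43, then 5.76, 5.81 and 6.37, and in treated knockout mice 3.83, 3.59 and 4.61. It fell by 5.07-fold in knockout mice (-2.34 ± 0.25, adjusted p = 2.15e-05), against -1.38 ± 0.25 in wild-type mice (adjusted p = 0.0757). For both granzymes untreated knockout mice lay wholly below untreated wild-type mice.

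Nkg7, a membrane protein of cytotoxic granules, had 7.41, 7.25 and 7.02 in untreated wild-type mice, 6.61, 6.34 and 6.13 in untreated knockout mice, between 5.56 and 6.22 in treated wild-type mice and 4.21, 4.43 and 4.60 in treated knockout mice. It fell by 2.46-fold in wild-type mice (-1.30 ± 0.19, adjusted p = 0.0437) and by 3.87-fold in knockout mice (-1.95 ± 0.19, adjusted p = 1.02e-05), with no overlap between treated and untreated mice of either genotype. Ctsw, a cathepsin of cytotoxic lymphocytes, was 3.75, 4.06 and 4.56 in treated knockout mice and 5.71, 5.63 and 5.50 in untreated ones. That was a fall of 2.81-fold (-1.49 ± 0.20, adjusted p = 0.00014). Fasl, a death ligand, and Prf1, the pore-forming perforin, passed in no comparison. Prf1 lay between 2.86 and 3.70 in the 12 arrays. Its mean over the arrays, like those of Klrk1 and Eomes, was below the 25th percentile of the mean signals of all genes.

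Stretches before the starts of 4 genes are shown because Gzma, Gzmb and Nkg7 fell together and Ctla4 rose in the same mice. They are the 250 bases upstream of the RefSeq start in GRCm38.p6, 5′ to 3′ on the strand of the gene. Capitals mark matches on either strand to the core bound by RUNX factors, TGTGGT, which reads ACCACA from the opposite strand. They also mark the core bound by T-box factors such as T-bet, AGGTGT, which reads ACACCT from the opposite strand, and the ends of both motifs can overlap. Gzma is at chr13:113100982-113101231 on the minus strand, Gzmb at chr14:56262335-56262584 on the minus strand, Nkg7 at chr7:43436888-43437137 on the plus strand and Ctla4 at chr1:60908775-60909024 on the plus strand.
Gzma: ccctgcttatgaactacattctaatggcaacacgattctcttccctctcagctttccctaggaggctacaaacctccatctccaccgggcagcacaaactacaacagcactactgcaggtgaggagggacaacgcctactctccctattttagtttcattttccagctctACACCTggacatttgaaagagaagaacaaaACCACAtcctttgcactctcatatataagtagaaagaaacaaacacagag
Gzmb: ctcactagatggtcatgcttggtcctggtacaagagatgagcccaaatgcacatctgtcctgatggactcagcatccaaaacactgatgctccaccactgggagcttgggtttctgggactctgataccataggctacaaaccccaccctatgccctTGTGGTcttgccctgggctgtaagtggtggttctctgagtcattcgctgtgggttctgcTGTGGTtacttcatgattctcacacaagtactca
Nkg7: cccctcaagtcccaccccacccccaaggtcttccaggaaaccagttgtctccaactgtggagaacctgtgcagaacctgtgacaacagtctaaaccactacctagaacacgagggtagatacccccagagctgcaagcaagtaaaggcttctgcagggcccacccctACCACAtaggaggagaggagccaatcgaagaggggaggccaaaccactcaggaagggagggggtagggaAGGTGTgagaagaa
Ctla4: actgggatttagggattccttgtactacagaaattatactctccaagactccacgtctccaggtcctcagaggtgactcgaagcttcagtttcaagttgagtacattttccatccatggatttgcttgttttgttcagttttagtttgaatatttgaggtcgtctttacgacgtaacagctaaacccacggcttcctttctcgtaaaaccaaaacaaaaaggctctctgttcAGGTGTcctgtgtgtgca
The RUNX core was in 14.0% of 32851 promoter windows of this length and the T-box core in 11.8%. Of the 12 genes that fell in treated knockout mice, 8 had a window, and 4 of these held the RUNX core (Gzma, Gzmb, Nkg7 and Cd160) and 4 the T-box core (Gzma, Nkg7, Cd3e and Cd3g). Ctla4 held the T-box core only, and Il7r, the other raised gene with a window, held neither. Of 11 genes with a window that did not pass, 3 held each core. A gene was counted where any of its windows held the core, and Cd160 had 2 windows and Zap70 3. The shares above are of single windows, so the counts of genes are not on the same footing. These motifs were picked after the values were seen, and a match is a description of the letters only.

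Of the 4 receptors first known from NK cells, Klrd1 and Cd160 fell in treated knockout mice, where 16.0% of all genes fell. Klrd1, the CD94 chain that pairs with NKG2 receptors, had 5.60, 5.22 and 5.23 in untreated wild-type mice, 4.54, 4.67 and 4.99 in untreated knockout mice, 4.20, 4.11 and 4.22 in treated wild-type mice and 4.11, 4.22 and 3.91 in treated knockout mice. The treated genotypes overlapped. Klrd1 fell by 2.26-fold in wild-type mice (-1.18 ± 0.14, adjusted p = 0.0437) and by 1.57-fold in knockout mice (-0.65 ± 0.14, adjusted p = 0.00419). Cd160, a receptor for HVEM on intraepithelial lymphocytes, was 3.99, 3.95 and 3.81 in untreated wild-type mice, 4.33, 3.90 and 3.91 in untreated knockout mice, 3.91, 3.44 and 3.87 in treated wild-type mice and 3.35, 2.99 and 3.15 in treated knockout mice. It fell by 1.85-fold in knockout mice (-0.89 ± 0.16, adjusted p = 0.00113), and the wild-type change was -0.18 ± 0.16 (adjusted p = 0.656). The interaction was -0.71 ± 0.23 (adjusted p = 0.0424), and leaving out 1 array ended this call, with adjusted p-values up to 0.103, except for replicates 2 and 3 of the untreated knockout, replicate 2 of the treated wild type and replicate 1 of the treated knockout. Between the treated genotypes Cd160 differed by -0.58 ± 0.16 (adjusted p = 0.0143), which did not pass without replicate 1 or 3 of the treated wild type or replicate 2 of the treated knockout. Cd160 and Cd2 lie on chromosome 3, as does Tlr2, and the part of sequence from the donor strain of the knockout in their signals was not tested. Klrk1, the activating receptor NKG2D, and Cd244a, the receptor for CD48, passed in no comparison. Cd244a was 6.35, 4.95 and 5.63 in the 3 treated knockout mice, a wide spread.

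Tbx21 encodes T-bet, the transcription factor of interferon-γ producing lymphocytes. It had 4.38, 4.49 and 4.66 in untreated wild-type mice, 4.46, 4.45 and 4.39 in untreated knockout mice, 4.17, 4.01 and 4.11 in treated wild-type mice and 3.79, 3.79 and 3.84 in treated knockout mice. The untreated genotypes overlapped, and treated knockout mice were lowest. It fell by 1.55-fold in knockout mice (-0.63 ± 0.09, adjusted p = 0.00029), against -0.41 ± 0.09 in wild-type mice (adjusted p = 0.148). Treated knockout mice were lower than treated wild-type mice by 0.29 on the log2 scale (adjusted p = 0.0297). Leaving out replicate 1 or 3 of the treated wild type, or any 1 treated knockout array, ended that call. Eomes, its relative in memory and NK cells, and Gata3, the factor of type 2 helper cells, passed in no comparison. Gata3 was 4.12, 4.15 and 4.70 in treated knockout mice and 3.95, 3.87 and 3.99 in treated wild-type mice, with a difference of 0.39 ± 0.15 (adjusted p = 0.0621).

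Both cytokine receptor genes were higher in treated knockout than in treated wild-type mice, as were 20.2% of all genes. Il7r, the receptor chain for interleukin 7 that innate lymphoid cells also carry, had 4.76, 4.71 and 4.69 in untreated wild-type mice, 5.06, 4.22 and 4.65 in untreated knockout mice, 5.18, 4.76 and 4.51 in treated wild-type mice and 5.30, 7.00 and 5.73 in treated knockout mice. Replicate 2 stood far above the other two. Methotrexate raised it by 2.58-fold in knockout mice (1.37 ± 0.37, adjusted p = 0.0127). Leaving out replicate 2 of the untreated mice of this genotype ended the call (1.16, adjusted p = 0.0563). Adjusted p-values ran from 6.3e-05 to 0.0652 over all settings. This methotrexate effect in knockout mice was 1.93 among the arrays high in pancreatic RNA and 0.24 between the single arrays low in it. The difference from treated wild-type mice was 1.19 ± 0.37 (adjusted p = 0.0236), and was lost without replicate 2 or 3 of the treated wild type or replicate 2 of the treated knockout. Il2rb, the chain shared by the receptors for interleukins 2 and 15, was 5.85, 5.53 and 5.75 in untreated wild-type mice, 5.04, 5.28 and 5.36 in untreated knockout mice, 5.07, 4.81 and 4.83 in treated wild-type mice and 4.99, 5.47 and 5.82 in treated knockout mice. Its changes with methotrexate were -0.81 ± 0.19 in wild-type mice (adjusted p = 0.161) and 0.20 ± 0.19 in knockout mice (adjusted p = 0.47), with an interaction of 1.01 ± 0.27 (adjusted p = 0.0169). The difference between treated genotypes, 0.52 ± 0.19, passed narrowly (adjusted p = 0.0494) and was lost without any 1 array other than replicate 1 of the untreated or the treated knockout.

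Ctla4, the brake that competes with CD28 for its ligands, had 3.39, 3.49 and 3.41 in untreated wild-type mice, 3.44, 3.19 and 3.32 in untreated knockout mice, 3.94, 3.89 and 3.34 in treated wild-type mice and 4.60, 5.16 and 4.90 in treated knockout mice. The 3 treated knockout arrays were the highest of the series. Methotrexate raised Ctla4 by 2.97-fold in knockout mice (1.57 ± 0.17, adjusted p = 3.02e-05), and this call was kept in all 25 other settings. The wild-type change was 0.29 ± 0.17 (adjusted p = 0.513) and the interaction 1.28 ± 0.25 (adjusted p = 0.0027). Its neighbours on chromosome 1 are Cd28 and Icos, co-stimulatory receptors of the same family. Neither passed, with changes of -0.20 ± 0.24 (adjusted p = 0.585) for Cd28 and 0.49 ± 0.19 (adjusted p = 0.0722) for Icos in knockout mice. The change of Icos passed in 6 of the 25 other settings. With replicate number as a block, which pairs mice of the knockout groups, it passed with an adjusted p of 0.0265. Cd27, a co-stimulatory receptor of the TNF receptor family, did not pass either.

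Other genes of T cells moved both ways in treated knockout mice, where 18.8% of all genes rose and 16.0% fell. Of 25 further genes of T cell signalling and identity, 6 rose and 2 fell, and the 4 with the smallest p all rose: Fyn by 1.15 ± 0.16, Lcp2 by 1.10 ± 0.17, Tox by 1.10 ± 0.20 and Thy1 by 1.11 ± 0.21. Fyn and Lcp2 encode a kinase and an adaptor that macrophages also use. Of 19 further genes of intraepithelial and resident T cells, 7 rose and 6 fell. The 4 with the smallest p were Fcer1g (1.87 ± 0.20), Itga1 (0.98 ± 0.12), Tyrobp (1.29 ± 0.16) and Rgs1 (2.20 ± 0.29), which rose. The 6 that fell, named after their values were seen, were the chemokines Ccl5 and Xcl1, the chemokine receptors Ccr9 and Cxcr6, and the surface receptors Cd101 and Slamf7, with changes from -1.46 for Ccl5 to -0.52 for Cxcr6. Fcer1g and Tyrobp encode signalling adaptors that are also abundant in myeloid cells. Among 18 further NK cell genes 3 rose and 2 fell, and of 11 B cell genes none passed in limma in any comparison, with 0 at an unadjusted p under 0.05. Xcl1 is in both the resident T cell and the NK cell list and counts among the falls of each. Of 20 further helper, regulatory and checkpoint genes 5 rose and 1 fell. The co-stimulator Tnfrsf9 rose by 2.04 ± 0.19, the checkpoint receptor Pdcd1 by 1.14 ± 0.14 and Tnfrsf18 by 0.70 ± 0.15, while the transcription factor Maf fell by 2.10 on the log2 scale. Of 7 genes of naive and lymph node T cells and their niche 3 rose, among them Cxcl13, the chemokine of B cell follicles, by 3.55 ± 0.57, and S1pr1, the receptor for exit from lymphoid tissue, by 1.99 ± 0.33. In wild-type mice no gene of these 6 lists passed in limma, and 5, 8, 4, 0, 5 and 0 of them in the order given had an unadjusted p under 0.05.

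Larger falls than in any of the 32 genes were found among the ligands, growth factors and adhesion partners of these lymphocytes. Of 22 measured, 8 fell with methotrexate in knockout mice, against 16.0% of all genes, and 5 rose, against 18.8%. None passed in wild-type mice in limma, with 1 at an unadjusted p under 0.05. H2-T3, the nonclassical class I molecule (TL) that binds CD8αα, was 3.24, 3.01 and 3.64 in treated knockout mice and 9.22, 9.21 and 9.11 in untreated ones, a fall of 59.1-fold (-5.88 ± 0.18, adjusted p = 3.68e-09). Btnl1, a butyrophilin-like protein that sustains γδ intraepithelial lymphocytes, was 3.65, 4.65 and 5.38 against 10.12, 9.94 and 10.05, a fall of 44.5-fold (-5.48 ± 0.31, adjusted p = 2.28e-07). Ccl25, the chemokine that draws T cells to the small intestine, fell by 3.73 on the log2 scale. In treated wild-type mice H2-T3 was 9.09, 8.61 and 9.25, and Btnl1 was 9.97, 9.98 and 10.14. Vcam1, a ligand for T cell integrins on endothelium and stroma, rose by 2.36 ± 0.13. A pair of partners of genes described above were picked after their values were seen. Il15, the ligand of the Il2rb chain, fell by 2.43 on the log2 scale in knockout mice (adjusted p = 1.25e-06), and Cdh1, which encodes E-cadherin, fell by 0.33 (adjusted p = 0.043).

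**Figure D5:**
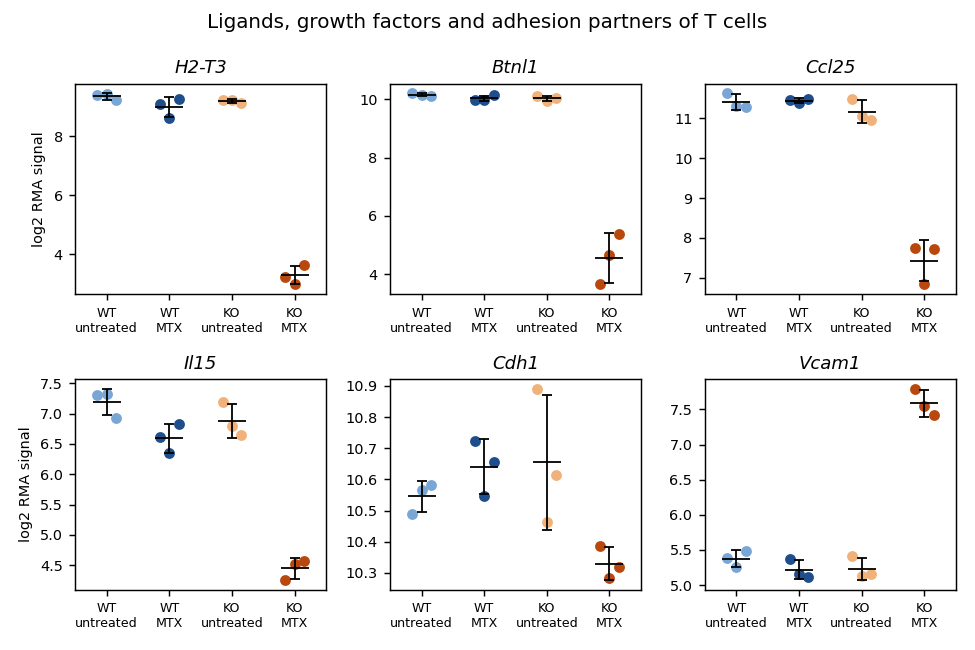
Log2 signal of 6 partner genes of T cells in each mouse (points), with the group mean and SD (bars, n = 3 mice). H2-T3, Btnl1, Ccl25 and Il15 are low in the 3 treated knockout mice alone, Vcam1 is high in them alone, and Cdh1 spans less than 1 log2 unit over all 12 mice.

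The partner genes that fell are mostly epithelial. Of 10 general epithelial genes, 7 fell in treated knockout mice, against 16.0% of all genes, and 1 rose, against 18.8%. Cdh1 is in both lists and counts among the falls of each. Vil1, a protein of the brush border, fell by 2.19 on the log2 scale, Krt20, a keratin of mature villus cells, by 2.18 and Epcam by 0.95, while Krt18 rose by 1.28 ± 0.23. The part of the epithelial change in the lymphocyte values was not tested.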

How the data were processed

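Total RNA of proximal jejunum from 12 mice was hybridised to 1 array each, per the labels' protocols. Values are log2 signals of probe sets as deposited, and the submitters' processing notes name RMA, a method that corrects background, normalises and summarises probes, without a version. The genome build behind the probe sets is not used here. The value table held 35556 probe sets, of which 21218 carry 1 gene symbol, 1881 several and 12457 none in the platform annotation. The brightest probe set stood for each of 18820 genes. Precision is limited by there being 3 arrays in each group.

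Groups were taken from the sample titles. Limma 3.58.1 in R 4.3.3 (lmFit, eBayes) was fitted to all 12 arrays with 1 mean per group and 8 residual degrees of freedom, tested on simulated data. A gene rose or fell where the Benjamini-Hochberg p over all genes was under 0.05. A value after ± is limma's standard error beside a change and an SD beside a mean. Labels call the mice biological replicates. Same-numbered mice deviated together (r from 0.29 to 0.67, every pair over 0.1) in the knockout methotrexate and untreated genotype comparisons. Elsewhere not every pair did, and what the number marks is not stated. Replicate 1 was low in pancreatic RNA in each group, and replicates 2 and 3 were high, except replicate 3 of the treated wild type. Pairs with that array had r below 0. The part of pancreatic RNA in the shared deviations was not tested. Replicate number as a block, other normalisations, gene values, filters, variance models and samples were alternatives.

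All listed genes are reported. Of other lists, counts and at most the 4 genes of smallest p among those that passed are given. For adipocytes and the exocrine pancreas only levels are given. Genes and lists were chosen with earlier results of these data known. Promoter windows came from RefSeq (GRCm38.p6), which held one for 21 of the 32 genes. Figures were drawn with matplotlib 3.10.9.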

Additional observations from a re-analysis of the deposited data

Results flagged for a closer look

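The methotrexate effect differed between the genotypes, by the interaction term of the limma fit, for 6 of the 32 genes, against 23.8% of all genes, so the number is no result about these genes as a group. Ctla4 had an interaction of 1.28 ± 0.25 on the log2 scale (adjusted p = 0.0027), with all 3 treated knockout mice above the other 9 mice. For Cd4 it was 1.65 ± 0.43 (adjusted p = 0.0149), where the change was below 0 in wild-type and above 0 in knockout mice, and for Il2rb 1.01 ± 0.27 (adjusted p = 0.0169). The values below 0 were -1.30 ± 0.36 for Gzmb (adjusted p = 0.02), -0.86 ± 0.26 for Cd8a (adjusted p = 0.0335) and -0.71 ± 0.23 for Cd160 (adjusted p = 0.0424), where knockout mice fell further. Over the 24 other settings, Ctla4 and Il2rb passed in 24, Cd4 in 23, Gzmb in 21, Cd8a in 14 and Cd160 in 13.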

How the results depend on the processing

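The counts of called genes among the 32 kept within 1.5 times for methotrexate in knockout mice (15) and between treated genotypes (15), with 13 to 16 and 11 to 15 when 1 array was left out. For methotrexate in wild-type mice (4) the count was 0 with arrays centred on their median, in a fit of only the groups compared, with the replicate block and without the 2 arrays highest in B cell genes. It was 17 with array weights, 9 among the arrays high in pancreatic RNA, and 0 to 9 without 1 array, the 9 coming without replicate 1 of the treated knockout. The interaction (6) gave 13 with array weights, 3 without the 2 arrays highest in B cell genes and 3 to 8 without 1 array, with 3 without replicate 3 of the untreated or of the treated wild type. The untreated genotypes (0) gave 8 with array weights and 1, Nkg7, among the arrays high in pancreatic RNA; no call appeared without 1 array. The replicate block gave 16 in knockout mice, 13 between treated genotypes, where Il2rb and Tbx21 were lost, and 7 for the interaction, where Gzma was gained, and changed no other call of these 32 genes beside those in wild-type mice and Icos. Of 994 values of called genes under the alternatives, 850 kept call and direction, 144 lost the call and 0 reversed; the cause was not tested. The B cell and pancreatic settings were chosen after the data were seen, apart from the pancreatic block. With 3 mice per group and signals of several genes near the lower end of the array, smaller changes could not be shown.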
